A study of Homo sapiens with 20 samples.

Results

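The integrin subunit and ICAM genes that leukocytes use for adhesion were followed in HL60 cells. The 10 genes were chosen by name, as ITGAM, ITGAX, ITGAL, ITGB2, ITGA4, ITGA5, ITGB1, ITGB7, ICAM1 and ICAM3. The choice was made with earlier results of these data known, so their counts beside the shares of all tested genes are a description. All 10 were found among the 28051 named genes of the RNAseq data and among the 13256 genes that were tested. Of 8286 ATACseq regions, 4 listed one of the 10 genes, and in each case it was ITGA5.

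An integrin is a pair of 1 α and 1 β subunit that spans the membrane and links ligands outside the cell to actin inside it. The β2 subunit ITGB2 pairs with ITGAL (CD11a), ITGAM (CD11b) or ITGAX (CD11c), and these pairs let leukocytes hold on to ICAM proteins, complement fragments and fibrinogen. ITGB1 pairs with ITGA4 and ITGA5, which bind VCAM1 and fibronectin, and ITGB7 pairs with ITGA4 to bind MADCAM1. CD11b is the marker most often used to follow granulocytic maturation, and integrins are held inactive until signals inside the cell recruit talin and kindlin to the β subunit tail.

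HL60 is an established promyelocytic cell line of human acute myeloid leukaemia, and the retinoid ATRA drives it towards granulocytes. HK3-null cells, edited with a lentiviral CRISPR/Cas9 vector at the hexokinase 3 gene, and control cells expressing Cas9 were given ATRA at 1 µM or its diluent DMSO at 0.01%, both over 36 h. RNAseq was done on 3 replicates and ATACseq on 2 replicates of each of the 4 groups, giving 12 and 8 libraries. The study describes the lines as clones and all HK3-null titles carry the same knockout label, so the loss of HK3 and a difference between clones cannot be told apart, and p values measure the spread between these cultures.

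RNAseq values are counts that the authors scaled between libraries, called normalized counts here, and between 22700000 and 37000000 counts per library were estimated to lie behind them. HK3, the targeted gene, had 344, 302 and 346 counts in HK3-null DMSO and 90, 65 and 105 in Cas9 control DMSO. In ATRA it had 1384, 1285 and 1975 against 1305, 1298 and 1850, so its RNA does not check the labels, and HK3-null below means the libraries labelled so. The promyelocyte genes MPO, ELANE, AZU1, PRTN3 and CD33 summed to between 542600 and 814834 in all 12 libraries, while the T cell, NK cell, erythroid and platelet markers summed to at most 24 in each library. The B cell markers summed to 46 to 110, nearly all of it from CD79A, and MS4A1 was 0 throughout. One library stood apart, Cas9 control DMSO replicate 1, which held 630 counts of FN1 against at most 54 elsewhere, 321 of COL1A1 against at most 33, and 212 of ITGA3 against at most 10. Its part in the results below was not tested beyond leaving it out. In bulk RNA, a change in RNA per cell and a change in the share of cells that express a gene cannot be told apart.

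All but ITGA4 and ITGB1 of the 10 genes had more RNA in ATRA than in DMSO in Cas9 control cells. A gene passed at a Benjamini-Hochberg adjusted p under 0.05 in limma over all tested genes, and it was called when it also changed at least 2-fold. In Cas9 control, 8 of the 10 passed upwards (20.3% of all tested genes did) and 1 downwards (21.3%), and 7 were called higher (6.84%) and 0 lower (2.78%). In HK3-null, 8 passed upwards (24% of all) and 1 downwards (25.1%), with 7 called higher (8.06%) and 0 lower (6.05%). The median change of the 10 genes was 1.42 in Cas9 control and 1.61 in HK3-null on the log2 scale, beside 0.00 and 0.01 for all tested genes.

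Between genotypes, most of the 10 genes had more RNA in the libraries labelled HK3-null, already without ATRA. In DMSO 9 of the 10 passed upwards (27.9% of all tested genes) and 1 downwards (27.1%), with 5 called higher (11.1%) and 0 lower (8.2%). In ATRA 9 passed upwards (29.6%) and 0 downwards (29.5%), with 4 called higher (11.4%) and 0 lower (9.93%). The medians were 0.87 in DMSO and 0.86 in ATRA. At an unadjusted p under 0.05 (limma), 1 member was lower in HK3-null in DMSO (29.6% of all tested genes were) and 0 in ATRA (31.6%), and 1 was lower with ATRA in Cas9 control (25.2%) and 1 in HK3-null (27.8%). At the thresholds of the study's methods, an unadjusted p under 0.05 and a fold of at least 1.5, 7 members rather than 4 were higher in HK3-null in ATRA (19.5%). The legends of the study's plots of genotype differences instead name an FDR under 0.05 and a fold above 2. The comparisons share libraries in pairs, so these counts are not independent of each other.

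**Figure D1:**
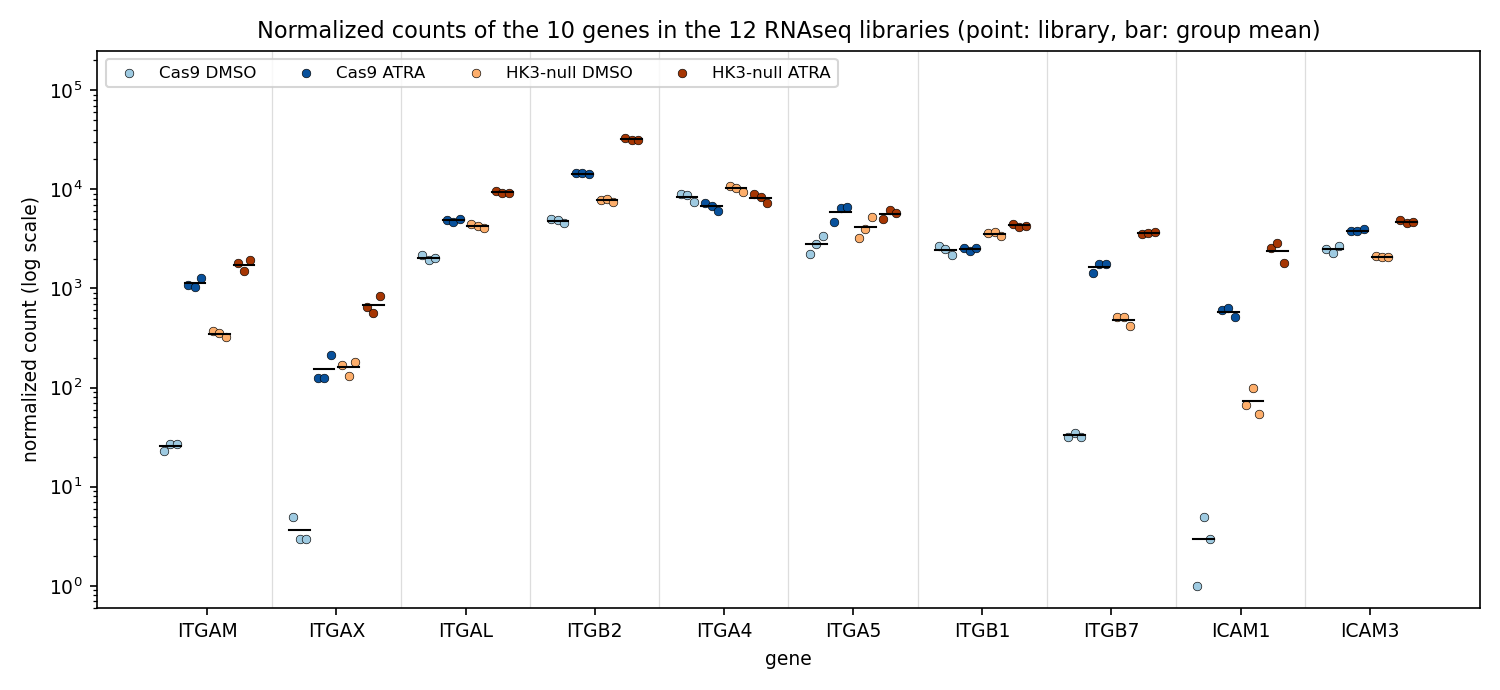
Normalized counts (log axis) of the 10 genes in each of the 12 RNAseq libraries, with points for libraries and bars for group means. ITGAM, ITGAX, ITGB7 and ICAM1 start below 40 in every Cas9 control DMSO library, while ITGA4, ITGB1 and ICAM3 change far less between groups.

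**Figure D2:**
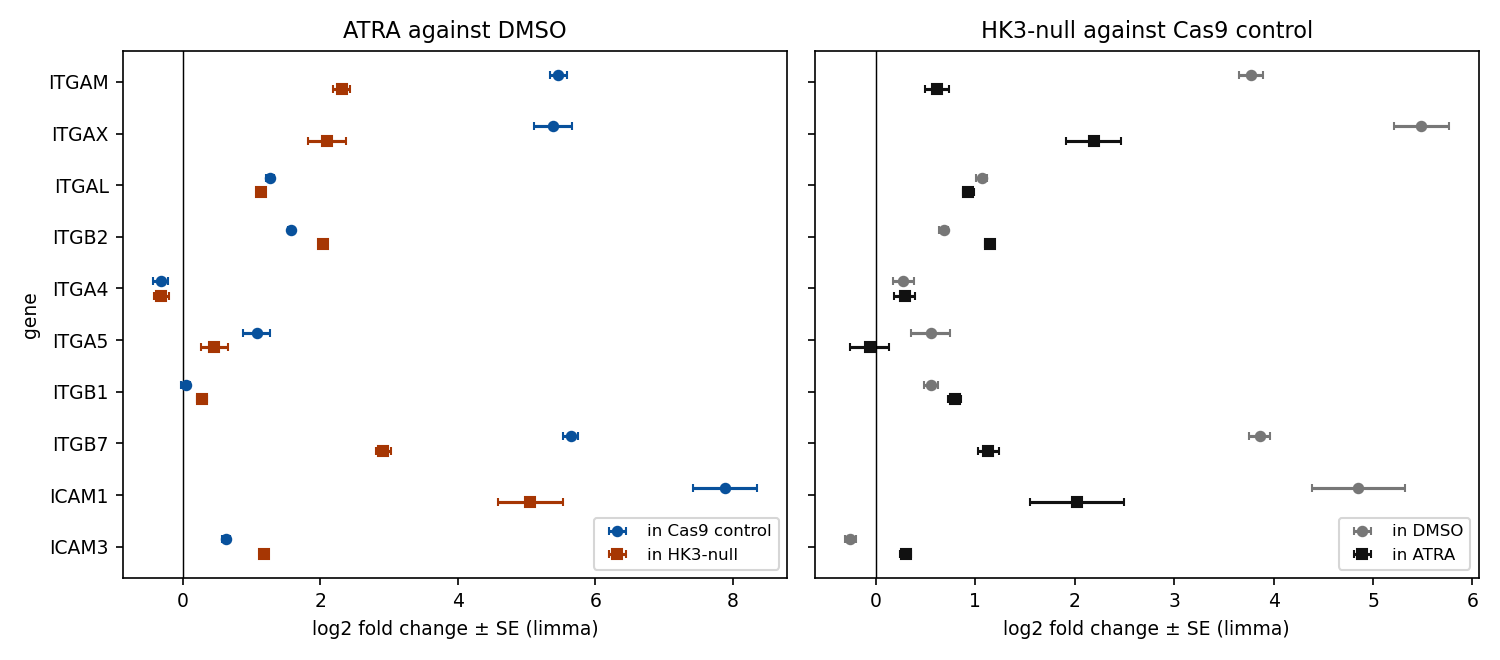
Log2 fold changes with standard errors (limma) of the 10 genes, ATRA against DMSO in each genotype on the left and HK3-null against Cas9 control in each treatment on the right. ICAM1 reaches 7.88 with ATRA in Cas9 control, and the genotype difference of ITGAM is 3.77 in DMSO and 0.62 in ATRA.

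The shared β subunit ITGB2 (chromosome 21, 44885953 to 44931989, minus strand, GRCh38) was one of the most abundant of the 10 transcripts. Its normalized counts were 4985, 4911 and 4619 in Cas9 control DMSO and 14515, 14511 and 14170 in Cas9 control ATRA. In the libraries labelled HK3-null they were 7889, 7977 and 7428 in DMSO and 32578, 31151 and 31751 in ATRA. The 4 groups did not overlap, and HK3-null ATRA lay above all others. ATRA raised ITGB2 by 1.57 on the log2 scale in Cas9 control (SE 0.045) and by 2.04 in HK3-null (SE 0.045), and the difference of the responses was 0.46 (SE 0.063, adjusted p = 0.000901, limma). Of ITGB2 and its 3 α partners, ITGB2 was the one whose log2 response was larger in HK3-null. The antisense transcript ITGB2-AS1, which overlaps it, held at most 189 counts in any library.

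ITGAL, the CD11a subunit that pairs with ITGB2 on most leukocytes to bind ICAM proteins, lies on chromosome 16 from 30472658 to 30523567. It had 2155, 1921 and 2015 counts in Cas9 control DMSO and 4949, 4687 and 5004 in Cas9 control ATRA. In HK3-null there were 4467, 4240 and 4036 counts in DMSO and 9528, 9131 and 9263 in ATRA. Every HK3-null DMSO library lay below the lowest Cas9 control ATRA library, so these groups did not overlap but lay close together. The ATRA response was 1.27 in Cas9 control (SE 0.055) and 1.13 in HK3-null (SE 0.055), and the difference between them, −0.13 (SE 0.078), did not pass (adjusted p = 0.373, limma). ITGAL was 1.07 higher in HK3-null in DMSO and 0.93 higher in ATRA (log2, limma, both past the test).

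ITGAM, the CD11b subunit, binds complement fragment iC3b and fibrinogen and lies on chromosome 16 from 31259967 to 31332892. Its counts were 23, 27 and 27 in Cas9 control DMSO, 1073, 1040 and 1289 in Cas9 control ATRA, 372, 355 and 322 in HK3-null DMSO and 1791, 1510 and 1915 in HK3-null ATRA. No 2 groups overlapped, and HK3-null cells without ATRA lay between both Cas9 control groups. The genotype difference was 3.77 in DMSO (SE 0.12, adjusted p = 1.12e-09, limma) and 0.62 in ATRA. ATRA raised ITGAM by 5.46 in Cas9 control and by 2.31 in HK3-null, a difference of −3.15 (SE 0.17, adjusted p = 1.34e-06, limma). In counts the order was the other way round, since ITGAM gained 1108 normalized counts with ATRA in Cas9 control and 1389 in HK3-null.

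ITGAX, the CD11c subunit typical of dendritic cells and monocytes, follows ITGAM on the same strand of chromosome 16, from 31355134 to 31382999. It was close to the detection limit in Cas9 control DMSO, with 5, 3 and 3 counts, and reached 124, 124 and 214 in Cas9 control ATRA. In HK3-null it had 169, 131 and 182 counts in DMSO and 655, 569 and 841 in ATRA. HK3-null DMSO overlapped Cas9 control ATRA, while HK3-null ATRA lay above all other libraries. The genotype difference of ITGAX was 5.48 in DMSO (SE 0.28, adjusted p = 3.04e-08, limma) and 2.19 in ATRA. The ATRA response was 5.39 in Cas9 control and 2.09 in HK3-null, and the difference of −3.29 passed (SE 0.39, adjusted p = 0.000373, limma). The 3 Cas9 control DMSO libraries held an estimated 13 counts of ITGAX in all before scaling. By counting error alone, its ratio to them was 38.2 (95% interval 22.1 to 72.3) in Cas9 control ATRA and 40.4 (23.4 to 76.5) in HK3-null DMSO. ITGAD, the next gene on that strand and a further partner of ITGB2, had at most 1 count in any library.

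Because counts rise with transcript length, the 3 α subunits of ITGB2 were compared per kilobase of their canonical transcripts. ITGAL made up 98.4% ± 0.14 (SD, n = 3) of their summed level in Cas9 control DMSO and 88.4% ± 0.45 in HK3-null DMSO. In ATRA its share was 77.7% ± 2.1 in Cas9 control and 77.9% ± 2.3 in HK3-null, so the α subunit that prevailed was ITGAL in all 4 groups. ITGAM took 1.36% ± 0.19 in Cas9 control DMSO, 19.6% ± 1.3 in Cas9 control ATRA, 7.91% ± 0.24 in HK3-null DMSO and 15.8% ± 1.3 in HK3-null ATRA. ITGAX took 0.194% ± 0.050, 2.67% ± 0.76, 3.69% ± 0.67 and 6.31% ± 1.1 in the same order. Per kilobase, ITGAX stood at 13.5% ± 2.8 of ITGAM in Cas9 control ATRA and at 46.8% ± 9.96 in HK3-null DMSO and 39.9% ± 4.0 in HK3-null ATRA, and the Cas9 control and HK3-null libraries did not overlap in this ratio. These shares were not tested.

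**Figure D3:**
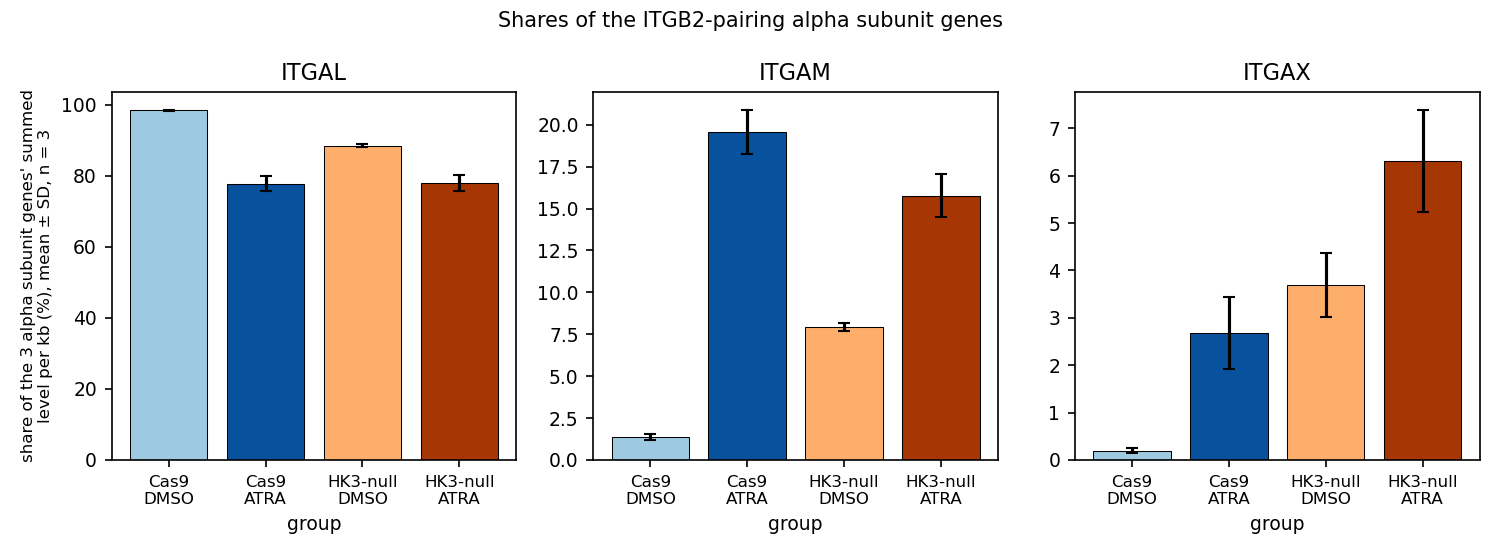
Shares (percent, mean and SD of 3 libraries) of ITGAL, ITGAM and ITGAX in their summed level per kilobase, in the 4 groups, each panel on its own scale from 0. The ITGAM share is larger in Cas9 control ATRA (19.6%) than in HK3-null ATRA (15.8%), and the ITGAX share is larger in HK3-null in both treatments.

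ITGB7 (chromosome 12, 53191323 to 53207282, minus strand) makes the gut-homing integrin with ITGA4 and also pairs with ITGAE. Its counts were 32, 35 and 32 in Cas9 control DMSO and 1433, 1754 and 1772 in Cas9 control ATRA, and 510, 520 and 414 in HK3-null DMSO and 3526, 3619 and 3681 in HK3-null ATRA. The groups did not overlap, and their order was that of ITGAM. ITGB7 was 3.86 higher in HK3-null in DMSO (SE 0.11) and 1.13 higher in ATRA (SE 0.11). ATRA raised it by 5.64 in Cas9 control and by 2.91 in HK3-null, a difference of −2.73 (SE 0.15, adjusted p = 1.49e-06, limma), while in counts the gain was 1620 in Cas9 control and 3127 in HK3-null.

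ITGA4, its α partner, lies on chromosome 2 from 181457202 to 181538940 and was abundant throughout. It had 9033, 8850 and 7397 counts in Cas9 control DMSO and 7338, 6843 and 5986 in Cas9 control ATRA, and 10905, 10236 and 9455 in HK3-null DMSO and 9061, 8327 and 7294 in HK3-null ATRA. ITGA4 was the one gene of the 10 that fell with ATRA, by 0.33 in Cas9 control (SE 0.11, adjusted p = 0.0281, limma) and by 0.31 in HK3-null (SE 0.11), with a difference of 0.01. It was 0.28 higher in HK3-null in DMSO and 0.29 higher in ATRA. HK3-null ATRA overlapped both Cas9 control groups, and no other pair of groups overlapped. Each of these 4 changes missed the threshold in 5 to 7 alternatives, with adjusted p of up to 0.163 without Cas9 control DMSO replicate 3 (0.19 between genotypes in DMSO), 0.125 without HK3-null ATRA replicate 1 (0.22 between genotypes in ATRA), 0.109 without Cas9 control ATRA replicate 3 (−0.24 with ATRA in Cas9 control) and 0.107 without HK3-null ATRA replicate 3 (−0.23 with ATRA in HK3-null). In every group replicate 1 was the highest and replicate 3 the lowest, and with the replicate number in the model the adjusted p of the 4 changes lay between 1.93e-05 and 4.19e-05 (limma).

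The balance of the β subunits moved with these changes. Per kilobase, ITGB2 made up 72.2% ± 1.1 (SD, n = 3) of the 3 β subunits in Cas9 control DMSO and 71.0% ± 0.35 in HK3-null DMSO, and 80.3% ± 0.94 and 82.2% ± 0.20 in ATRA. ITGB7 took 0.493% ± 0.032 in Cas9 control DMSO and 4.39% ± 0.36 in HK3-null DMSO, and 9.22% ± 1.0 and 9.33% ± 0.35 in ATRA. ITGB1 took the rest, from 27.3% ± 1.1 in Cas9 control DMSO to 8.42% ± 0.16 in HK3-null ATRA. Set against each other as the partners of ITGA4, ITGB1 stood at 5567% ± 580 of the ITGB7 level per kilobase in Cas9 control DMSO and at 562% ± 48.7 in HK3-null DMSO. In ATRA it stood at 115% ± 17.2 in Cas9 control and at 90.3% ± 5.2 in HK3-null, where it was below ITGB7 in all 3 libraries.

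ITGB1, the most widely paired β subunit, lies on chromosome 10 from 32887273 to 33005792 on the minus strand. It did not respond to ATRA beyond the spread in Cas9 control, with 2654, 2472 and 2199 counts in DMSO and 2568, 2384 and 2557 in ATRA (log2 change 0.04, adjusted p = 0.692, limma). In HK3-null it had 3616, 3706 and 3408 counts in DMSO and 4517, 4173 and 4316 in ATRA, a rise of 0.28 (SE 0.069). The HK3-null libraries lay above all Cas9 control libraries in both treatments, by 0.55 in DMSO and 0.79 in ATRA (SE 0.069 for both). The difference of the ATRA responses was 0.24 and did not pass (adjusted p = 0.180, limma).

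ITGA5, the fibronectin receptor subunit that pairs with ITGB1, lies on chromosome 12 from 54395261 to 54419266 on the minus strand. The counts were 2248, 2829 and 3402 in Cas9 control DMSO and 4671, 6528 and 6567 in Cas9 control ATRA, and 3260, 4012 and 5250 in HK3-null DMSO and 5037, 6132 and 5741 in HK3-null ATRA. Replicate 1 was the lowest library in all 4 groups, and Cas9 control DMSO lay below both ATRA groups, while the other pairs of groups overlapped. ATRA raised ITGA5 by 1.07 in Cas9 control (SE 0.20, adjusted p = 0.00115, limma), and it was called at just over 2-fold. The call was lost without Cas9 control DMSO replicate 1 (0.92), Cas9 control ATRA replicate 2 (0.991) or Cas9 control ATRA replicate 3 (0.987), and in each of these fits ITGA5 still passed the test. In HK3-null the change was 0.46 and did not pass (adjusted p = 0.0751), but it passed with the replicate number as a block (adjusted p = 0.00108, limma) and without HK3-null DMSO replicate 3 (0.64, adjusted p = 0.0205). The difference of the responses, −0.61, did not pass either (SE 0.28, adjusted p = 0.228), and with the block it passed (adjusted p = 0.00621). Between genotypes ITGA5 was 0.56 higher in HK3-null in DMSO (adjusted p = 0.0316, limma), which did not pass without Cas9 control DMSO replicate 1 (0.40, adjusted p = 0.127) or 2 (0.57, adjusted p = 0.0649), or without HK3-null DMSO replicate 2 (0.57, adjusted p = 0.0636) or 3 (0.38, adjusted p = 0.129). The difference in DMSO also did not pass without a filter (adjusted p = 0.118) or in a fit of 2 groups only (adjusted p = 0.0606, limma). Over all alternatives its adjusted p lay between 0.000249 and 0.129 (limma). In ATRA ITGA5 differed by −0.06 (adjusted p = 0.815).

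**Figure D4:**
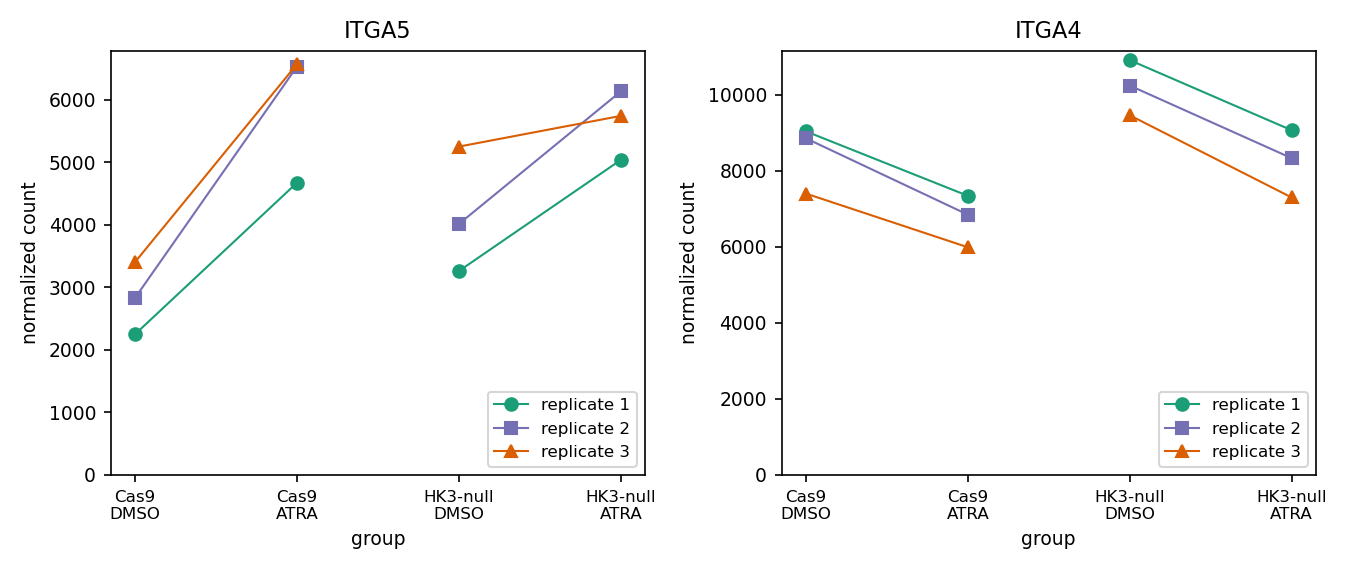
Normalized counts of ITGA5 and ITGA4 in the 4 groups, with lines that join ATRA and DMSO libraries of the same genotype and replicate number. Replicate 1 is the lowest of each group for ITGA5, from 2248 to 5037, and the highest of each group for ITGA4.

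Among the ligands, ICAM1, a counter-receptor of ITGAL and ITGAM, had the largest log2 response to ATRA of the 10 genes in both genotypes. It lies on chromosome 19 from 10271093 to 10286615. It had 1, 5 and 3 counts in Cas9 control DMSO and 604, 637 and 514 in Cas9 control ATRA, and 67, 100 and 54 in HK3-null DMSO and 2538, 2876 and 1826 in HK3-null ATRA. The groups did not overlap. ATRA raised it by 7.88 in Cas9 control (SE 0.47) and by 5.06 in HK3-null (SE 0.47), and the genotype difference was 4.85 in DMSO and 2.02 in ATRA (all past the test in limma). The Cas9 control DMSO libraries held an estimated 10 counts in all, so by counting error alone the ratio to them was 197 (95% interval 107 to 411) in Cas9 control ATRA and 25.1 (13.4 to 53.0) in HK3-null DMSO. The difference of the ATRA responses, −2.83 (SE 0.66, adjusted p = 0.0215, limma), missed the threshold in 4 alternatives, with adjusted p between 0.00470 and 0.0926 over all of them. Of these, 2 were fits without Cas9 control ATRA replicate 2 (−2.76, adjusted p = 0.0523) and without HK3-null DMSO replicate 2 (−2.58, adjusted p = 0.0583).

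ICAM3, a ligand of ITGAL carried by resting leukocytes, lies on chromosome 19 from 10333776 to 10339661 on the minus strand. It had 2518, 2295 and 2665 counts in Cas9 control DMSO and 3757, 3802 and 3936 in Cas9 control ATRA, and 2103, 2100 and 2055 in HK3-null DMSO and 4864, 4600 and 4728 in HK3-null ATRA. ICAM3 was the one gene of the 10 that was lower in HK3-null in DMSO, with a difference of −0.25 (SE 0.055, adjusted p = 0.00232, limma), and it was higher there in ATRA, by 0.30 (SE 0.055). The groups did not overlap in either comparison. The ATRA response was 0.62 in Cas9 control and 1.18 in HK3-null, a difference of 0.56 (SE 0.078, adjusted p = 0.00104, limma).

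Across the 10 genes, the ATRA response thus differed between genotypes for 6, of which ICAM1 missed the threshold in 4 alternatives. The response was more positive in HK3-null for ITGB2 and ICAM3, 2 of the 10 (4.48% of all tested genes were). It was less positive for ITGAM, ITGAX, ITGB7 and ICAM1, 4 of the 10 (4.64%). The 4 with the smaller log2 response were those that started below 40 counts in Cas9 control DMSO and at 54 to 520 in HK3-null DMSO. All 4 nevertheless ended higher in HK3-null ATRA than in Cas9 control ATRA.

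Promoter sequences from RefSeq (GRCh38.p14) were read for the 3 genes of this set of 4 that had an entry in the table. The table held 7 of the 10 genes. Each is printed 5′ to 3′ on its gene's strand, from 250 to 11 bases before the RefSeq start, with letter matches in capitals.

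ITGAM promoter (chr16:31259725-31259964, plus strand): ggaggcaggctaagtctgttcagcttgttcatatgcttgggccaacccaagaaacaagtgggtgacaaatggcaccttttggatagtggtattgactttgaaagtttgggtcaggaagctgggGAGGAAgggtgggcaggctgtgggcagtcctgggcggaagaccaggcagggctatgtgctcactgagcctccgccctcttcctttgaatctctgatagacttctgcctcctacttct

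ITGB7 promoter (chr12:53207262-53207501, minus strand): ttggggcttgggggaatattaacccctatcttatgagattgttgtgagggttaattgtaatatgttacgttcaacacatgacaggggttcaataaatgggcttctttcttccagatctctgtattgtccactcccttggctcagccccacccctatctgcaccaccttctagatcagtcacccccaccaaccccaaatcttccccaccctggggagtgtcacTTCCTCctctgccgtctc

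ICAM1 promoter (chr19:10270870-10271109, plus strand): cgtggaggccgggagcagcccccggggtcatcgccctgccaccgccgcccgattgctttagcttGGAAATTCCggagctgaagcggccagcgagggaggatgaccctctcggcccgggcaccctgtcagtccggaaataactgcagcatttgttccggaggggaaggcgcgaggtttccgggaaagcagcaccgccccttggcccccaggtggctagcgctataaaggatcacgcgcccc

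The 250 bases before the start were searched on both strands for GAGGAA (the core letters of many PU.1 sites), AGGTCA and AGTTCA (retinoid receptor half-sites), GGNNNTTCC (a κB site form) and TTGCNNAA (a C/EBP site form). The windows of ITGAM and ITGB7 each held 1 match to GAGGAA or its reverse complement TTCCTC, starting 127 and 28 bases before the start, and 23.6% of the 35116 promoters in the table held at least 1. The ICAM1 window held 1 match to GGNNNTTCC, with the letters GGAAATTCC starting 186 bases before the start, against 17.1% of all promoters. None of the 3 windows held AGGTCA (12.1% of all promoters), AGTTCA (8.8%) or TTGCNNAA (9.05%). These are letter matches and were not tested.

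The 4 ATACseq regions that listed ITGA5 lay on both sides of the gene and moved in different directions between genotypes. ATACseq signal is the authors' fragment density per region after all libraries were reduced to the same number of fragments, and its depth is unknown. Every deposited region differs by at least 1.5-fold between the genotypes in ATRA, so that contrast chose the regions. Its values, and the ATRA responses that rest on the same ATRA libraries, are a description here, and p values are given only between the DMSO groups. These p values are not free of that choice, since the same lines are compared and the spread was estimated over all 8 libraries. In DMSO 42.7% of all tested regions were called higher in HK3-null and 43.9% lower. For the region centred 4115 bases upstream of the ITGA5 start, 54423203 to 54423559, inside the long noncoding gene GPR84-AS1 but in no exon and in no other gene, the middle part is printed on the plus strand.

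Upstream region (chr12:54423233-54423528, hg38): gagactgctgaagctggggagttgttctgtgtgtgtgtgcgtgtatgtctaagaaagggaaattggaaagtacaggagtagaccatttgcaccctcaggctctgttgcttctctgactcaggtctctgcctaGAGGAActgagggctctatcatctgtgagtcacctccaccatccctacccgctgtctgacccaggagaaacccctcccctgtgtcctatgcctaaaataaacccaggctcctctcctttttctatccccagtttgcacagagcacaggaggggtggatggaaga

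For the region beyond the 3′ end, 54391237 to 54391534, the bases past the annotated start of ZNF385A are printed.

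Downstream region (chr12:54391299-54391532, hg38): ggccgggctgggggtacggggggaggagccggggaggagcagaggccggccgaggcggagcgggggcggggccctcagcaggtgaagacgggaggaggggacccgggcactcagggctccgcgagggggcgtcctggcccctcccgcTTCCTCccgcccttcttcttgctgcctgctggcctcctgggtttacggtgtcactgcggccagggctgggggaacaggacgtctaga

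Signal in the upstream region was 5.33 and 11.3 in Cas9 control DMSO and 6.73 and 6.36 in Cas9 control ATRA, and 52.2 and 51.2 in HK3-null DMSO and 37.9 and 18.6 in HK3-null ATRA. All HK3-null libraries lay above all Cas9 control libraries, but the difference in ATRA chose the region. The region was 2.58 higher in HK3-null in DMSO on the log2(signal + 1) scale (SE 0.42, adjusted p = 1.99e-06, limma). The capitals mark its 1 match to GAGGAA, which 42.7% of the 8286 regions held in a window of this length.

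Signal in the downstream region was 20.9 and 38.8 in Cas9 control DMSO and 54.6 and 31.6 in Cas9 control ATRA, and 7.22 and 8.56 in HK3-null DMSO and 5.44 and 1.89 in HK3-null ATRA. Here every HK3-null library lay below every Cas9 control library, but the difference in ATRA again chose the region. In DMSO the difference was −1.74 (SE 0.46, adjusted p = 0.000944, limma). This region overlaps the outermost annotated start of ZNF385A, a zinc finger gene on the minus strand, but no exon of its canonical transcript. The centre of the region lies 3876 bases past the 3′ end of ITGA5. ZNF385A RNA was higher in HK3-null in DMSO, with 1067, 1035 and 1065 counts against 540, 504 and 645. The neighbouring region inside ZNF385A, 54390283 to 54390643, was also lower in HK3-null in DMSO, at 21.1 and 5.82 against 32.3 and 38.8 (−1.57, SE 0.44, adjusted p = 0.00149, limma). Without HK3-null DMSO replicate 2 that change was −0.72 and did not pass (adjusted p = 0.167).

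The region inside ITGA5, 54411311 to 54411872, reaches into an exon, and its centre lies 7675 bases past the start. Its signal was 106 and 129 in Cas9 control DMSO and 75.7 and 42.2 in Cas9 control ATRA, and 187 and 140 in HK3-null DMSO and 108 and 112 in HK3-null ATRA. Both Cas9 control ATRA libraries lay below both Cas9 control DMSO libraries, with a difference of −1.03 on the log2(signal + 1) scale that was −0.62 without Cas9 control ATRA replicate 2 and −0.89 without Cas9 control DMSO replicate 2. The genotype difference in DMSO was 0.47 and did not pass (adjusted p = 0.138, limma).

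Of the 4 regions, 1 was called higher in HK3-null DMSO (42.7% of tested regions were) and 2 lower (43.9%). With ATRA, 0 were called higher (2.54%) and 1 lower (15.6%) in Cas9 control, and 0 higher (5.04%) and 0 lower (11.8%) in HK3-null. The ATRA counts draw on libraries that chose the regions, and nothing is read from them.

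**Figure D5:**
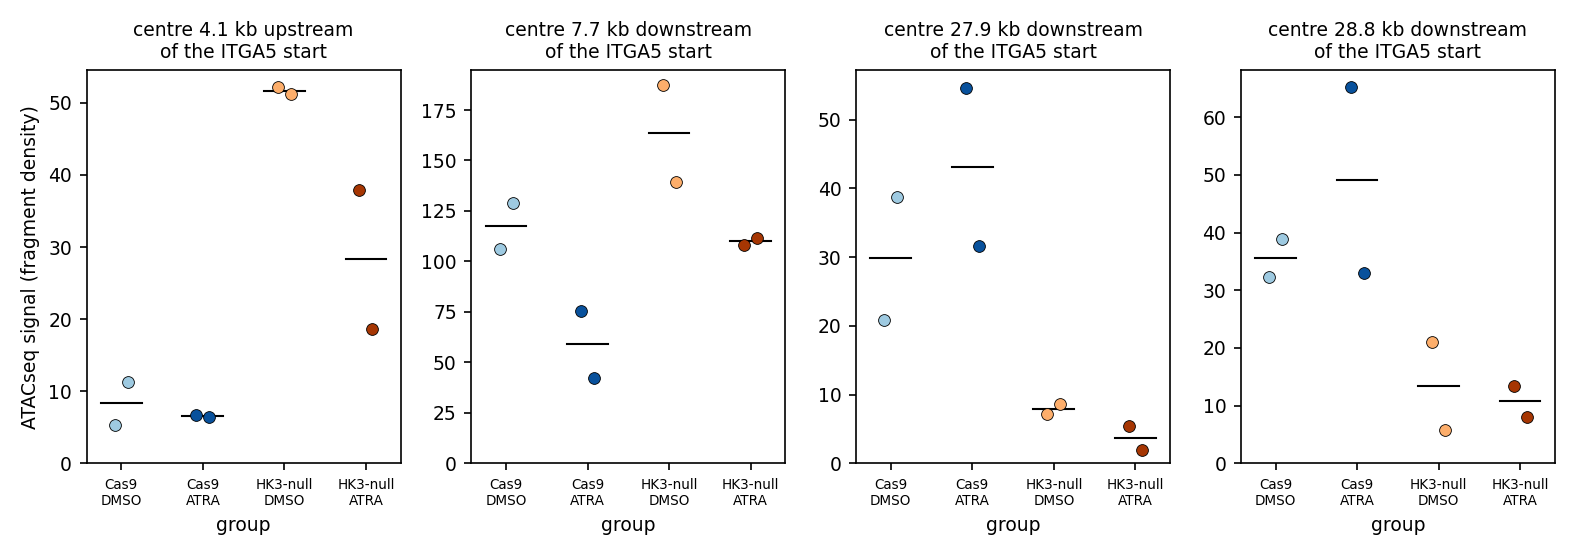
ATACseq signal (fragment density) in the 4 regions that list ITGA5, ordered by the distance of their centre from the ITGA5 start, with points for libraries and bars for means of 2 libraries. The region 4115 bases upstream is above 18 in all HK3-null libraries and below 12 in all Cas9 control libraries. The pair of regions beyond the 3′ end shows the opposite order. The genotype difference in ATRA chose these regions.

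Beyond the 10 genes, 9 lists of adhesion genes with 103 entries were examined, and 76 entries were tested. The lists too were chosen with earlier results of these data known, so their counts beside the shares are a description. In DMSO 15 of the 76 were called higher in HK3-null (11.1% of all tested genes were) and 4 lower (8.2%), and in ATRA 20 higher (11.4%) and 7 lower (9.93%). With ATRA 17 were called higher (6.84%) and 2 lower (2.78%) in Cas9 control, and 19 higher (8.06%) and 3 lower (6.05%) in HK3-null. The median genotype change of all tested genes on chromosome 8 was 1.09 in DMSO and 1.06 in ATRA. With each chromosome's median subtracted, 13 list genes were called higher and 3 lower in DMSO, and 18 higher and 6 lower in ATRA. Without subtraction, the median log2 changes of all 76 were 0.27 in DMSO and 0.42 in ATRA between genotypes. With ATRA they were 0.50 in Cas9 control and 0.41 in HK3-null. For all tested genes the medians were 0.00, 0.01, 0.00 and 0.01 in the same order. Without Cas9 control DMSO replicate 1 the counts were 18 higher and 3 lower between genotypes in DMSO and 17 higher and 1 lower with ATRA in Cas9 control. For these counts, and for those with chromosome medians subtracted, the share of all tested genes was not taken, so they have no matching background.

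The kinases and adaptors that carry signals from bound integrins made up 16 of the tested genes. Of these, 5 were called higher in HK3-null in DMSO (11.1% of all tested genes were) and 7 in ATRA (11.4%). With ATRA 6 were called higher in Cas9 control (6.84%) and 7 in HK3-null (8.06%). In these 4 comparisons 0 were called lower (8.2%, 9.93%, 2.78% and 6.05% of all tested genes were). Past an adjusted p of 0.05 downwards in limma were 4 (27.1%), 1 (29.5%), 0 (21.3%) and 1 (25.1%), in the same order. FGR, a Src family kinase of myeloid cells, had 43.3 ± 6.4 counts (SD, n = 3) in Cas9 control DMSO and 11970 ± 962 in Cas9 control ATRA, and 1178 ± 86.2 in HK3-null DMSO and 23933 ± 1346 in HK3-null ATRA. LYN, another Src family kinase, and PTK2B, a focal adhesion kinase relative, were among the genes called higher in HK3-null and lie on chromosome 8. LYN was 1.62 higher in DMSO and 1.78 in ATRA, and PTK2B was 1.37 and 1.44 higher. With the chromosome median subtracted these values were 0.52, 0.72, 0.28 and 0.38, and neither gene was called. LCP2, of the same list, lies on chromosome 5, whose median was −0.75 in DMSO and −0.78 in ATRA. Subtraction took LCP2 from 0.33 to 1.08 in DMSO and from 0.59 to 1.38 in ATRA, and it was then called. After subtraction 4 and 5 genes of the list were called higher in DMSO and in ATRA. The share of all tested genes after subtraction was not taken, so these counts have no matching background. FGR was 1.00 higher in HK3-null in ATRA, and 0.95 and not called with the chromosome median subtracted. LYN, PTK2B and LCP2 were named after their values were seen. TYROBP, the adaptor through which β2 integrins reach SYK, was 2.41 higher in HK3-null in ATRA (SE 0.074).

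Talins, kindlins and the RAP1 pathway activate integrins from inside the cell. Of the 13 such genes tested, 0 were called higher and 1 lower in HK3-null in either treatment, with 6 and 9 past an adjusted p of 0.05 upwards (27.9% and 29.6% of all tested genes were) and 3 and 2 downwards (27.1% and 29.5%) in limma. The one called lower was TLN2, a talin, with 11.7 ± 4.0 counts in HK3-null DMSO against 53.7 ± 32.9 in Cas9 control DMSO. The fall was −2.10 and was −1.63 without Cas9 control DMSO replicate 1 (adjusted p = 0.0170, limma). The median change of chromosome 15, where TLN2 lies, was −0.94 in DMSO, and TLN2 was −1.16 and not called with it subtracted. In ATRA TLN2 was −2.31, and with the median of −0.97 subtracted it was −1.34 and still called. The medians of the chromosomes of the 10 genes lay between −0.03 and 0.12 in both treatments. FERMT3 and TLN1, the kindlin and talin of leukocytes, were named after their values were seen. FERMT3 was 0.38 higher in HK3-null in DMSO and 0.48 higher in ATRA, and TLN1 was 0.19 and 0.43 higher.

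Among ligands and membrane partners, PECAM1, an adhesion receptor of leukocytes and endothelium, was 3.33 higher in HK3-null in DMSO and 3.10 higher in ATRA (SE 0.12 for both). CD82, a tetraspanin, was 2.76 higher in DMSO (SE 0.14), and CD37, another tetraspanin, was lower, with differences of −1.26 in DMSO and −2.12 in ATRA (SE 0.11). ICAM2, a further ligand of ITGAL, was lower in HK3-null, with 27.3 ± 3.8 counts against 78.3 ± 2.1 in DMSO and 14 ± 2 against 75.7 ± 16.2 in ATRA. PARVB, an actin linker, was lower in HK3-null in ATRA, with a difference of −1.07 (SE 0.086), which was −0.95 and not called with the chromosome median subtracted.

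With ATRA, PXN, the focal adhesion scaffold paxillin, rose from 106 ± 42.3 to 814 ± 77.5 counts in Cas9 control and from 45.7 ± 8.5 to 2473 ± 338 in HK3-null. Its difference between genotypes in DMSO was −1.16, and −0.85 without Cas9 control DMSO replicate 1. The difference of its log2 responses was 2.76 (SE 0.34, adjusted p = 0.000430, limma). CD44, the hyaluronan receptor, fell by 1.76 in Cas9 control and by 1.54 in HK3-null (SE 0.17 for both). PLAUR, the urokinase receptor that binds ITGAM, fell by 1.08 in Cas9 control (SE 0.19), and by 0.94 without Cas9 control DMSO replicate 1, under the 2-fold of a call. In HK3-null the change of PLAUR was 0.27 and did not pass (adjusted p = 0.261, limma), and the difference of the responses was 1.35 (SE 0.27, adjusted p = 0.00913). ICAM4 and ICAM5 follow ICAM1 on chromosome 19. ICAM4 rose with ATRA from 7.33 ± 1.2 to 88.0 ± 27.5 counts in Cas9 control and from 21.3 ± 9.6 to 371 ± 39.6 in HK3-null, and ICAM5 had 118 ± 20.2 counts in HK3-null ATRA against 6 ± 2.6 in Cas9 control ATRA. ITGA6, named after its values were seen, is the laminin receptor subunit, and it went from 692 to 1193 counts with ATRA in Cas9 control and from 1266 to 6065 in HK3-null (difference of responses 1.47, SE 0.12, adjusted p = 2.63e-05, limma).

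The genes most like the β2 family over the 12 libraries were found by Pearson's r of log2(count + 1) among 10665 genes with a mean of at least 50. The 12 libraries share 4 group means, which set most of each r, and the values are a description. ITGAM was most like P2RY13 (r = 0.997), ITGB7 (0.996) and FGR (0.993). ITGAX was most like RAB37 (0.995), LSP1 (0.992) and CYBB (0.990), the last of these the catalytic subunit of the phagocyte NADPH oxidase. ITGAL was most like C1RL (0.996) and CAPG (0.996), and ITGB2 was most like CD53 (0.998), DBNL (0.995) and COTL1 (0.995).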

How the data were processed

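HL60 RNAseq (12 libraries) and ATACseq (8 libraries) were read from the values the authors deposited. The RNAseq files hold log2 values of whole-number counts that the authors scaled between libraries, with 0 written as log2 of 0.001. The study's methods call them log2 RPKM, and DESeq2 is named in the submitters' processing notes. The RNA aligner is not given in the sources used here, and neither is whether counting used strand, so overlapping antisense transcripts (ITGB2-AS1, ITGAL-AS1, ICAM4-AS1) cannot be separated. The ATACseq files hold signal, the authors' fragment density over merged MACS2 regions after bwa mem alignment to hg38, duplicate removal and random sampling of each library to the size of the smallest.

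Groups came from the labelled genotype and treatment. RNAseq log2 values of 13256 of 28051 genes (group mean log2 above 3 in at least 1 group) were fitted by limma 3.58.1 in R 4.3.3 with 4 group means and a variance trend, and ATACseq by the same model on log2(signal + 1) for 6214 of 8286 regions, those with a mean signal above 17.1, the 25th percentile. P values were adjusted by Benjamini-Hochberg over all genes or regions tested, two-sided. A gene was called at adjusted p under 0.05 and a fold of at least 2, a region at 1.5. Unnamed rows, at most 0.00926% of a library, were left out. Library depth was estimated from the whole numbers that scaling and rounding skip or double, and intervals and floors cover counting error only. A count of 3 came to 2.47 to 3.84 normalized counts per library.

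The RNAseq replicate numbers marked libraries that deviated together. Over 10666 genes, deviations from group means correlated at 0.189 to 0.629 in all 18 cross-group pairs that share a number and at −0.640 to 0.282 in the 36 that do not. Labels do not say what a number shares.

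Gene loci and transcript lengths came from GENCODE v44 (GRCh38) and promoter sequences from RefSeq. All 10 members were named in every comparison, and from the 9 adhesion lists, per comparison, the 3 largest rises and 3 largest falls among called genes that averaged 50 or more normalized counts in a compared group. The members and lists were chosen with earlier results of these data known. Alternatives were log2(count + 1), no filter, quantile normalization, the replicate block and each library left out. Others were chromosome medians subtracted, 2 groups only, the thresholds of the study's methods and log2(signal + 5). The fits were tested on simulated data. Adhesion lists were also counted without Cas9 control DMSO replicate 1 and with chromosome medians subtracted, alternatives chosen after seeing the data. A gene that the rule on likeness also names is not reported here.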

Additional observations from a re-analysis of the deposited data

Results flagged for a closer look

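The ATRA response differed between HK3-null and Cas9 control cells for 6 of the 10 genes by the interaction term in limma, over 3 libraries in each group. Of these, ICAM1 missed the threshold in 4 alternatives. On the log2 scale the difference, HK3-null minus Cas9 control, was −3.15 for ITGAM, −3.29 for ITGAX, −2.73 for ITGB7 and −2.83 for ICAM1, and 0.46 for ITGB2 and 0.56 for ICAM3. For the first 4 genes the gain in normalized counts was nevertheless larger in HK3-null, at 1389 against 1108 for ITGAM, 528 against 150 for ITGAX, 3127 against 1620 for ITGB7 and 2340 against 582 for ICAM1.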

How the results depend on the processing

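Over 890 alternative values for the 50 member results in RNAseq, 842 kept direction and side of the threshold. For the 16 ATACseq region results, 159 of 176 alternative values were counted as the same. For genotype results in ATRA, the same meant the same direction and a shift smaller than the SE. For the other region results it meant the same direction and side of the threshold. At the thresholds of the study's methods 7 members were called higher between genotypes in ATRA, where 19.5% of all tested genes were. Leaving out 1 library at a time gave 1 to 2 regions called lower between genotypes in DMSO, 0 to 1 lower with ATRA in Cas9 control and 0 to 1 lower with ATRA in HK3-null, where a lone library was assumed to vary like the others. Directions that turned were those of small changes that did not pass. Leave-one-out values ran from −0.221 to 0.0249 for ITGA5 between genotypes in ATRA, from −0.0342 to 0.102 for ITGB1 with ATRA in Cas9 control, and from −0.0689 to 0.103 for the ITGA4 interaction. ITGB1 was −0.0014 with chromosome medians subtracted, and the ITGA4 interaction was −0.14 under quantile normalization. For the region inside ZNF385A the ATRA change ran from −0.10 to 0.86 in Cas9 control and from −0.95 to 0.74 in HK3-null, and for the upstream region it was −0.70 to 0.25 in Cas9 control. The replicate block moved ITGA5 past the adjusted p threshold with ATRA in HK3-null (0.46, still under 2-fold) and in the interaction (−0.61), and moved no other member across it, so 5 rather than 4 members had a smaller response. ATACseq replicate numbers did not mark libraries that deviate together (correlations −0.209 to 0.0539 for 12 pairs), and the block changed no region call. The ATRA responses of the regions rest on libraries that chose them. The ICAM1 interaction was −2.83 without a filter (adjusted p = 0.0926) and −2.11 under quantile normalization (adjusted p = 0.0590). ATACseq depth is unknown and each group has 2 libraries, so small changes in accessibility could not be resolved.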
